A study of Homo sapiens with 6 samples.

Results

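Polycomb repressive complexes keep genes silent by marking the chromatin around them, and 9 human genes of these complexes were followed here in a leukemia cell line treated with a CDK7 inhibitor. The genes were EZH1, EZH2, SUZ12, EED and JARID2 of Polycomb repressive complex 2 (PRC2) and RING1, RNF2, BMI1 and CBX2 of Polycomb repressive complex 1 (PRC1). They were chosen by name as a list, matched by symbol and Ensembl identifier, and all 9 were found among the 57905 genes of the count table. NALM6 is a human cell line from B cell precursor acute lymphoblastic leukemia. It was treated with 500 nM of THZ1, a covalent inhibitor of the kinase CDK7, or with DMSO, the solvent, for 24 h. RNA-SEQ libraries were made from 3 samples of each treatment, of a single cell line at a single dose and time. The labels do not say whether the samples came from separate cultures, so the p-values measure the spread between these samples, which may be technical.

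PRC2 adds methyl groups to lysine 27 of histone H3. EZH2 or its paralog EZH1 carries out the methylation, SUZ12 holds the complex together, EED reads the mark that the complex itself makes, and JARID2 is an accessory subunit that helps recruit the complex and tune its activity. PRC1 adds ubiquitin to histone H2A through the E3 ligases RNF2 (RING1B) and RING1 (RING1A). BMI1 (PCGF4) is a partner that pairs with these ligases in canonical PRC1, and CBX2 is a chromodomain subunit that binds methylated histone H3 and compacts chromatin. In B cell development EZH2 is prominent in dividing precursors, whereas EZH1 is known for persisting in many cells that have stopped dividing.

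The promoters of EZH2, SUZ12, EZH1 and JARID2 are shown as examples that each hold letters of a known promoter element. The first 3 genes fell with THZ1 and JARID2 did not. EED, which also fell and holds such letters, is not shown. The windows were taken from RefSeq on GRCh38.p14 and run from 250 bases before the start of transcription to 20 bases after it, 5′ to 3′ on the strand of the gene. Windows were found for 8 of the 9 genes, EZH1, EZH2, SUZ12, EED, JARID2, RING1, RNF2 and BMI1. Capitals mark E2F words (TTTGGCGC, TTTCCCGC, TTTGCCGC or TTTCGCGC, on both strands), CCAAT (on both strands) and TATAAA (on the strand of the gene). No marked words overlap each other. The motifs were chosen after the sequences had been seen.
EZH2, chr7:148884272-148884541, minus strand: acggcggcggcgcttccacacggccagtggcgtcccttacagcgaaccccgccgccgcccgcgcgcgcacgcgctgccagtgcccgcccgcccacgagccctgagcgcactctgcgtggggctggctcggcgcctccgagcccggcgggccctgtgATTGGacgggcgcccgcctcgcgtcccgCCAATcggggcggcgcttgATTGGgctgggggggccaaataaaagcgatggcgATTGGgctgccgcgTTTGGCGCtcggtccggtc
SUZ12, chr17:31936757-31937026, plus strand: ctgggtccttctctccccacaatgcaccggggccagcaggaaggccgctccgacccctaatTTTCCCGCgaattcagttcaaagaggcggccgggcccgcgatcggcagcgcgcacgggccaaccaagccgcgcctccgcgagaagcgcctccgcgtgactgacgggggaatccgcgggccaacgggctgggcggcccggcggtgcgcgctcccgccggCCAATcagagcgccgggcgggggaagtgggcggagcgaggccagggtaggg
EZH1, chr17:42745021-42745290, minus strand: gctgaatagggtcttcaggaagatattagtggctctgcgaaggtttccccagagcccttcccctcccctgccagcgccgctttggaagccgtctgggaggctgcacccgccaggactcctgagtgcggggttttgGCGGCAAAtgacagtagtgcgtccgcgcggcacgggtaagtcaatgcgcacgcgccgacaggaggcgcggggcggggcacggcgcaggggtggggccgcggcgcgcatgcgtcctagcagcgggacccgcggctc
JARID2, chr6:15245819-15246088, plus strand: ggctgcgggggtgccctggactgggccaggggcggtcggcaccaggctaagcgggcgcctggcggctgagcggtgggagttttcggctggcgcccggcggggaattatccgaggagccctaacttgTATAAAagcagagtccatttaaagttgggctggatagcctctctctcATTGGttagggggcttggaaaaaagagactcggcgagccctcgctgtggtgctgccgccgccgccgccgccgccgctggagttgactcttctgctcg

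An E2F word began at base 2 of the EZH2 transcript, 189 bases before the SUZ12 start and 115 bases before the EZH1 start. Such a word was present in 3.03% of all 35116 promoter windows. The windows of EED, RING1, RNF2 and BMI1, which also fell, held no E2F word, so the sequences shown are not a picture of all genes that fell. CCAAT was present at 4 places in the EZH2 window and at 1 place in those of SUZ12, JARID2 and EED, and 33.1% of all windows hold it. TATAAA was found in the JARID2 window, 124 bases before the start, and 7.01% of all windows hold it. EZH2, JARID2 and BMI1 each have a further window from another start, which held none of these words, as did the windows of RING1 and RNF2 and the first of BMI1. A match describes the letters of the window and is not a measured binding site.

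The libraries held 11015480 to 11164840 counts with DMSO and 7876402 to 8314306 with THZ1. Values below are CPM, the counts relative to library size after TMM scaling, on which 3 counts correspond to at most 0.253 CPM with DMSO and 0.415 CPM with THZ1. Words such as lower, higher, fell and rose therefore describe levels relative to the other RNA counted. The amount of RNA per cell is not given in the sources used here. Of the genes tested 84.5% were called different at an adjusted p-value below 0.05 (edgeR quasi-likelihood test, Benjamini-Hochberg), with 41.1% lower and 43.5% higher, so a call by itself is common in these libraries. Summed B cell precursor markers were 4720 to 4901 CPM with DMSO and 2575 to 2661 CPM with THZ1, where 11 of 14 were called lower, 2 higher and 1 was not called. Markers of other cells were low, although the summed levels of 4 myeloid markers moved from 3.88 to 4.59 CPM up to 17.0 to 18.0 CPM (2 called higher, 1 lower and 1 not called). In the same way 3 erythroid markers moved from 0.164 to 0.253 CPM up to 2.81 to 3.55 CPM, and 5 stromal and epithelial markers, with KRT18 at 0 counts in every library, from 3.20 to 4.46 CPM up to 15.6 to 16.1 CPM, with 1 marker of each list called higher and the others too low to test. The 4 T cell markers reached at most 5 counts in any library. The part of these markers in the values of the Polycomb genes was not tested. In bulk RNA, fewer cells of a kind and less RNA per cell cannot be told apart.

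With THZ1, 7 of the 9 Polycomb genes were lower and 2, JARID2 and CBX2, were higher by small amounts whose calls were lost under some other scalings, filters and tests (edgeR quasi-likelihood test). All 9 were called, beside 84.5% of all genes tested, and 8 had libraries that did not overlap between treatments, beside 84.7% of all genes. The median log2 fold change was -0.99 over the 9 genes and 0.03 over all genes tested. All 9 also had an unadjusted p-value below 0.05, as every gene called must, so at least 84.5% of all genes tested did too. None of the 9 reached the log2 fold change of 1.5 in size that 37.5% of all genes passed. DESeq2 also gave 0 at that size, whereas BMI1 passed it with library sizes alone (-1.69), with no filter (-1.53), without DMSO replicate 2 (-1.50) and without THZ1 replicate 3 (-1.56), and EZH1 passed it with limma on FPKM at a pseudocount of 0.1 (-1.50).

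**Figure D1:**
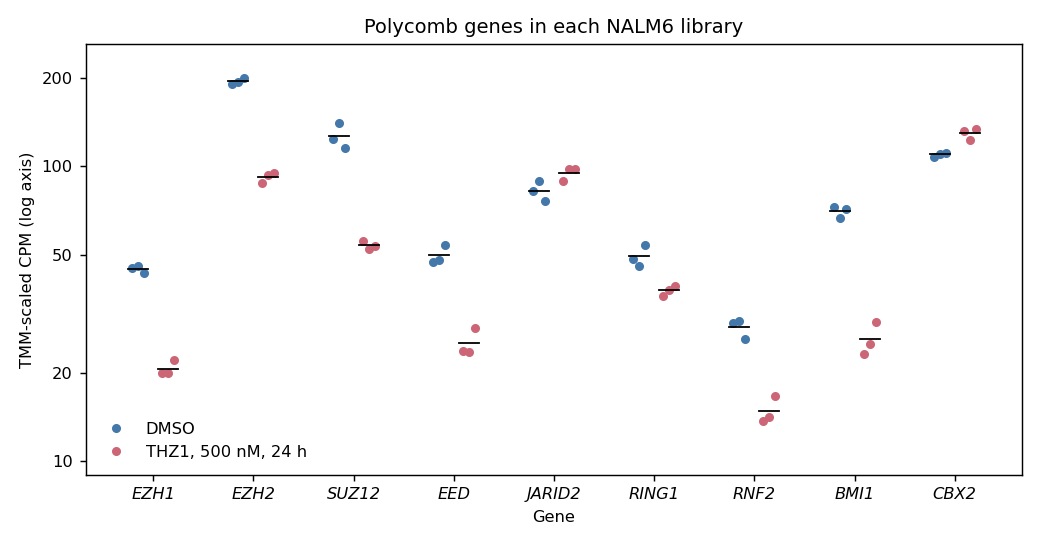
TMM-scaled CPM (log axis) of the 9 Polycomb genes in each library, with DMSO in blue, THZ1 in red and a black bar at the mean of 3 libraries. The treatments overlap for JARID2 and are separate for the other 8 genes, with EZH2 near 194 CPM in DMSO and 92.1 CPM in THZ1.

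EZH2 (chromosome 7, 148504349 to 148581413, minus strand, GRCh37), the main methyltransferase of dividing cells, had the highest level per length (FPKM) with DMSO of the 8 genes in the FPKM table. Its level was 190, 194 and 199 CPM in the DMSO libraries and 87.7, 93.3 and 95.3 CPM in the THZ1 libraries. The treatments were well apart, and THZ1 libraries held 47.5% of the DMSO mean. The log2 fold change was -1.08 ± 0.07 (SE, n = 3 and 3; edgeR adjusted p = 5.7e-15). EZH1 (chromosome 17, 40852293 to 40897067, minus strand) gave 45.4, 46.0 and 43.6 CPM with DMSO and 19.9, 19.9 and 22.1 CPM with THZ1. This paralog was lower in all THZ1 libraries than in all DMSO libraries, with a log2 fold change of -1.13 ± 0.10 (SE; edgeR adjusted p = 1.0e-11).

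SUZ12 (chromosome 17, 30264026 to 30328057, plus strand), the scaffold of the complex, had 124, 141 and 116 CPM with DMSO and 55.8, 52.3 and 53.9 CPM with THZ1. It varied more among DMSO libraries (SD 12.6 CPM) than among THZ1 libraries (SD 1.72 CPM), yet the groups stayed far apart. Its log2 fold change was -1.23 ± 0.08 (SE; edgeR adjusted p = 9.2e-15), and SUZ12P1, a pseudogene copy counted on its own, had 311 to 349 counts with DMSO and 472 to 496 counts with THZ1. EED (chromosome 11, 85912254 to 85989855, plus strand), the reader of the methyl mark, had 47.5, 48.3 and 54.0 CPM with DMSO and 23.7, 23.4 and 28.3 CPM with THZ1. Replicate 3 of each treatment was the highest for EED, and the log2 fold change was -0.99 ± 0.10 (SE; edgeR adjusted p = 2.1e-10). The catalytic, scaffold and reader genes of PRC2 thus lay between 42.6% and 50.4% of their DMSO means.

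JARID2 (chromosome 6, 15246300 to 15522273, plus strand), the accessory subunit, did not fall with the core. It had 82.4, 89.3 and 76.3 CPM with DMSO and 88.9, 98.3 and 97.6 CPM with THZ1, so DMSO replicate 2 lay above THZ1 replicate 1. Its log2 fold change was 0.20 ± 0.08 (SE; edgeR adjusted p = 0.022). With library sizes alone, in place of TMM, the value was -0.050 (adjusted p = 0.57), and the call was lost with no filter (0.11) and with limma on FPKM (0.11), both at adjusted p = 0.25. The call was also lost without DMSO replicate 1 (log2 fold change 0.18), DMSO replicate 3 (0.12), THZ1 replicate 2 (0.16) or THZ1 replicate 3 (0.17), with adjusted p-values between 0.095 and 0.12. JARID2-AS1, annotated within JARID2 on the opposite strand, had 3, 6 and 10 counts with DMSO and 87, 70 and 76 counts with THZ1. The strand setting of the counting is not given in the sources used here, so reads of this pair cannot be assigned with certainty.

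In PRC1, BMI1 (chromosome 10, 22610028 to 22620413, plus strand) showed the lowest fold change of the 9 genes. It had 72.8, 67.0 and 71.8 CPM with DMSO and 23.1, 25.1 and 29.7 CPM with THZ1. This left 36.8% of the DMSO mean, with a log2 fold change of -1.44 ± 0.10 (SE; edgeR adjusted p = 9.2e-15). The read-through gene COMMD3-BMI1 covers 22.8% of the exon bases of BMI1 and had 0 counts in every library. RNF2 (chromosome 1, 185014658 to 185071735, plus strand), an E3 ligase of the complex, had 29.4, 30.0 and 26.1 CPM with DMSO and 13.7, 14.1 and 16.7 CPM with THZ1. DMSO replicate 3 was the lowest of its group and THZ1 replicate 3 the highest of its own, and the log2 fold change was -0.94 ± 0.12 (SE; edgeR adjusted p = 2.3e-08).

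RING1 (chromosome 6, 33176277 to 33180499, plus strand) is the other E3 ligase. It had 48.6, 45.9 and 54.1 CPM with DMSO and 36.4, 38.2 and 39.3 CPM with THZ1. The groups did not overlap, and the log2 fold change was -0.38 ± 0.09 (SE; edgeR adjusted p = 0.00039). With upper quartile scaling, the value was -0.19 and the call was lost (adjusted p = 0.060). CBX2 (chromosome 17, 77751947 to 77761782, plus strand), the chromodomain subunit, had 108, 110 and 111 CPM with DMSO and 131, 123 and 134 CPM with THZ1. Every THZ1 library was above every DMSO library on this scale, with a log2 fold change of 0.24 ± 0.07 (SE; edgeR adjusted p = 0.0029), but the value was -0.0090 with library sizes alone (adjusted p = 0.91). The call was also lost with no filter (0.15, adjusted p = 0.087) and with limma on FPKM (0.11 at both pseudocounts, adjusted p = 0.080 and 0.079).

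**Figure D2:**
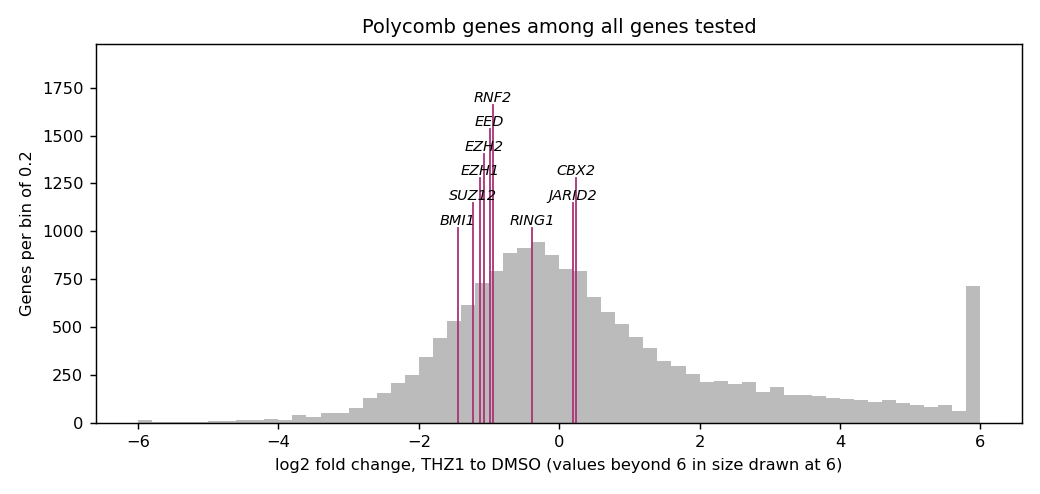
Number of genes per bin of 0.2 in log2 fold change (THZ1 to DMSO) over all 16622 genes tested, with the 9 Polycomb genes drawn as lines. BMI1 lies lowest at -1.44 and CBX2 highest at 0.24, a rise that was -0.0090 with library sizes alone, as that of JARID2 was -0.050.

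**Figure D3:**
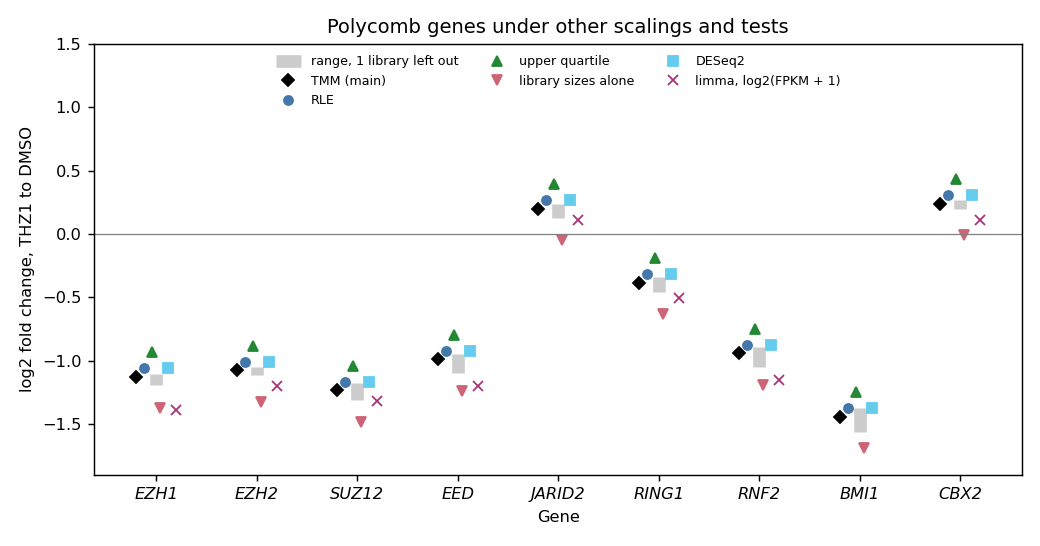
Log2 fold change (THZ1 to DMSO) of each Polycomb gene under TMM and under other scalings and tests, with a grey bar for the range when 1 library was left out. EZH1, EZH2, SUZ12, EED, RING1, RNF2 and BMI1 stay below 0 under every setting drawn, while JARID2 and CBX2 cross 0 with library sizes alone.

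The plot of settings shows that the scalings moved all genes together. Relative to TMM, upper quartile factors shifted the median log2 fold change of all genes by 0.19, and unscaled library sizes shifted it by -0.25. Over the alternatives run, EZH2 ranged from -1.32 to -0.88, EZH1 from -1.50 to -0.93, SUZ12 from -1.48 to -1.04 and EED from -1.28 to -0.80. RNF2 ranged from -1.23 to -0.75 and BMI1 from -1.69 to -1.25, and these 6 genes kept their call under each alternative that gave them a value. Of these alternatives, limma on FPKM used values that appear to have been normalised separately by treatment. A call kept or lost with limma is therefore weak evidence for any gene here.

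Levels between genes were compared per length, as FPKM, in the 8 genes that the deposited FPKM table lists (BMI1 was taken from the counts). With DMSO, EZH2 was highest at 122 ± 5.62 FPKM (SD, n = 3), followed by RING1 at 77.2 ± 4.04 FPKM. SUZ12 (54.4 FPKM) and CBX2 (54.3 FPKM) did not differ beyond their spread, JARID2 stood at 36.9 FPKM, EED and RNF2 (both 20.7 FPKM) overlapped, and EZH1 was lowest at 18.3 FPKM. With THZ1, CBX2 was highest at 58.8 ± 2.62 FPKM, and RING1 (54.1 FPKM) and EZH2 (52.7 FPKM) overlapped. JARID2 followed at 39.8 FPKM, above SUZ12 at 21.1 FPKM, then RNF2 (8.81 FPKM) and EED (8.50 FPKM), which overlapped, and EZH1 at 6.40 FPKM. By these means EZH2 was first with DMSO and in place 3 with THZ1, where it overlapped RING1, and JARID2 went from below SUZ12 to above it. The FPKM values of the treatments appear to have been normalised separately, so the order within a treatment is read here. Any FPKM ratio, share or limma fit set across treatments carries that doubt.

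Ratios within a library do not depend on how libraries are scaled. The log2 ratio of EZH2 to EZH1 counts was 2.06, 2.08 and 2.19 with DMSO and 2.14, 2.22 and 2.11 with THZ1. The groups overlapped, and the difference of 0.05 (range over pairs of libraries -0.08 to 0.16) was within the spread (two-sided exact permutation test, p = 0.5). From FPKM, with treatments apparently normalised separately, the difference was 0.31, and the groups did not overlap (exact p = 0.1). The log2 ratio of RNF2 to RING1 counts was -0.73, -0.61 and -1.05 with DMSO and -1.41, -1.43 and -1.23 with THZ1. All THZ1 libraries lay below all DMSO libraries, by 0.56 on average (range over pairs -0.82 to -0.18; exact p = 0.1, the smallest that 3 against 3 libraries can give).

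A further pair of ratios was chosen after the values had been seen and is given without a test. The log2 ratio of JARID2 to EZH2 counts went from a mean of -1.23 ± 0.13 (SD, n = 3) to 0.04 ± 0.03. The log2 ratio of CBX2 to BMI1 counts went from 0.64 ± 0.08 to 2.32 ± 0.17. In both, the libraries of the treatments were far apart.

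Shares describe how the summed level of a family was divided among the paralogs measured. Counts per exon length divide by all annotated exon bases of a gene, not by transcript length, so the size of a share depends on the measure. EZH2 made up 87.0% ± 0.452 (SD, n = 3) of EZH1 and EZH2 FPKM with DMSO and 89.2% ± 0.643 with THZ1 (two-sided exact permutation p = 0.1), but by counts per exon length the shares were 73.7% and 74.4% (exact p = 0.4). RNF2 made up 21.2% ± 1.82 of RNF2 and RING1 FPKM with DMSO and 14.0% ± 1.38 with THZ1 (exact p = 0.1), and by counts per exon length, which do not rest on that normalisation, 21.1% ± 2.58 and 15.3% ± 1.01 (exact p = 0.1). Among PCGF1, PCGF3, BMI1, PCGF5 and PCGF6, by counts per exon length and without PCGF2, which was not analysed here, BMI1 made up 29.4% ± 1.96 with DMSO and 10.7% ± 1.00 with THZ1 (exact p = 0.1). Over the same libraries PCGF1, which belongs to a variant PRC1, went from 14.1% to 51.6% of these PCGF genes.

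**Figure D4:**
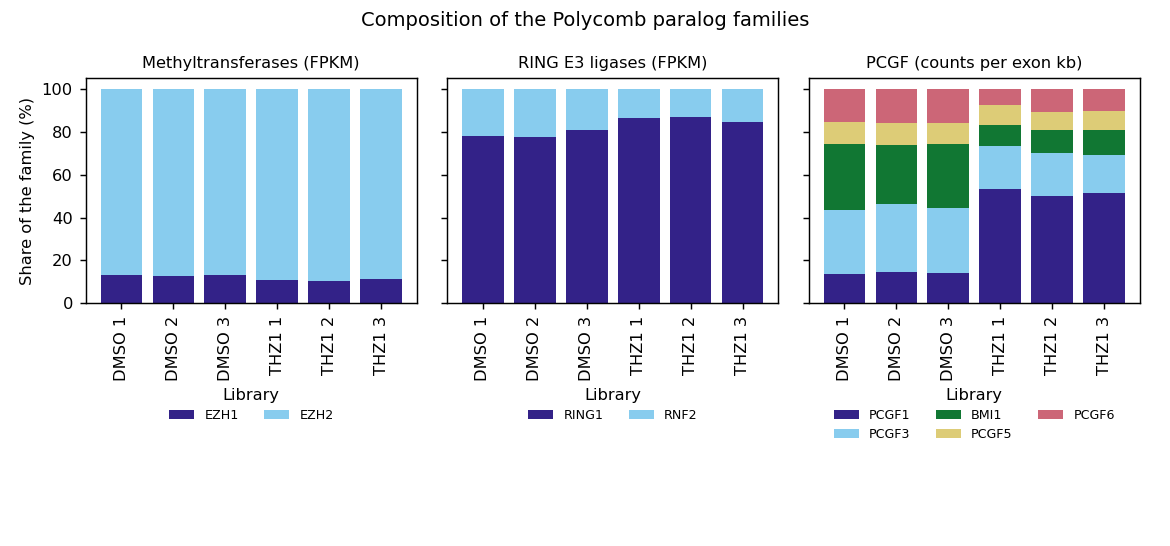
Share of each paralog (% of the family) in each library, for the methyltransferases and RING E3 ligases from FPKM, apparently normalised separately by treatment, and for the PCGF genes without PCGF2 from counts per exon kb. BMI1 falls from 29.4% to 10.7% of the PCGF genes while PCGF1 goes from 14.1% to 51.6%.

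The remaining subunits of PRC2 did not all follow the core. Of 9 listed, 7 were tested, and 4 were lower and 3 higher (edgeR quasi-likelihood test), with a median log2 fold change of -0.77. Over all genes tested, 84.5% were called, 41.1% lower and 43.5% higher, with a median of 0.03. The histone chaperone RBBP7 fell (log2 fold change -1.02 ± 0.07, SE), as did its paralog RBBP4 (-0.77 ± 0.07) and the Tudor-domain subunit PHF19 (-0.92 ± 0.09). PHF1, a paralog of PHF19, was 22.7 to 28.8 CPM with DMSO and 175 to 198 CPM with THZ1, and its log2 fold change was 2.80 ± 0.09 (edgeR adjusted p = 4.0e-23). LCOR (1.40 ± 0.11) and AEBP2 (0.33 ± 0.09) were also higher, although neither passed with limma on FPKM, and AEBP2 did not pass with library sizes alone.

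Of 23 other PRC1 subunits listed, 22 were tested, and 15 were lower, 6 higher and 1 was not called, with a median log2 fold change of -0.37. The shares over all genes tested were 84.5% called, 41.1% lower and 43.5% higher. The polyhomeotic genes did not move together, as PHC2 fell by 2.39 on the log2 scale while PHC3 rose by 1.45. PHC1 was lower by less (-0.35 with TMM), and its call was not followed under the alternatives. SCML2 (-1.57) and MGA (-1.17) were lower, while PCGF1 (1.87) and CBX8 (1.17) were higher. The further paralogs of BMI1 measured here, without PCGF2, had log2 fold changes of -0.67 (PCGF3), -0.20 (PCGF5) and -0.72 (PCGF6), and the call of PCGF5 was lost under 10 of 15 alternatives, among them leaving out DMSO replicate 1 (-0.21), DMSO replicate 2 (-0.19), THZ1 replicate 1 (-0.22), THZ1 replicate 2 (-0.18) or THZ1 replicate 3 (-0.22). CBX6 was lower (-0.38), and CBX7 (0.43) did not pass (adjusted p = 0.060). CBX7 was called higher under 5 alternatives, with RLE factors (0.50), upper quartile factors (0.62), 10 counts in every library (0.56), without DMSO replicate 2 (0.52) and without THZ1 replicate 1 (0.52), and lower with limma on FPKM (-0.66 and -0.98, adjusted p = 0.0047 and 0.0074), so no direction is given for it.

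Enzymes that remove the Polycomb marks, with their partners, formed the last list. Of 15, 14 were tested, and 8 were lower, 5 higher and 1 was not called, with a median log2 fold change of -0.34. Beside these stand 84.5% called, 41.1% lower and 43.5% higher of all genes tested. Both demethylases of histone H3 lysine 27 rose. KDM6B had 53.1 to 60.1 CPM with DMSO and 289 to 315 CPM with THZ1, and its log2 fold change was 2.44 ± 0.08 (SE; edgeR adjusted p = 1.6e-23), and KDM6A had a log2 fold change of 1.07 ± 0.10. MBD6 (1.55), a partner of the H2A deubiquitinase BAP1, was also higher. ASXL2 (-2.03) and FOXK1 (-1.48), which also belong with BAP1, and the H2A deubiquitinase USP16 (-0.87) were lower.

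**Figure D5:**
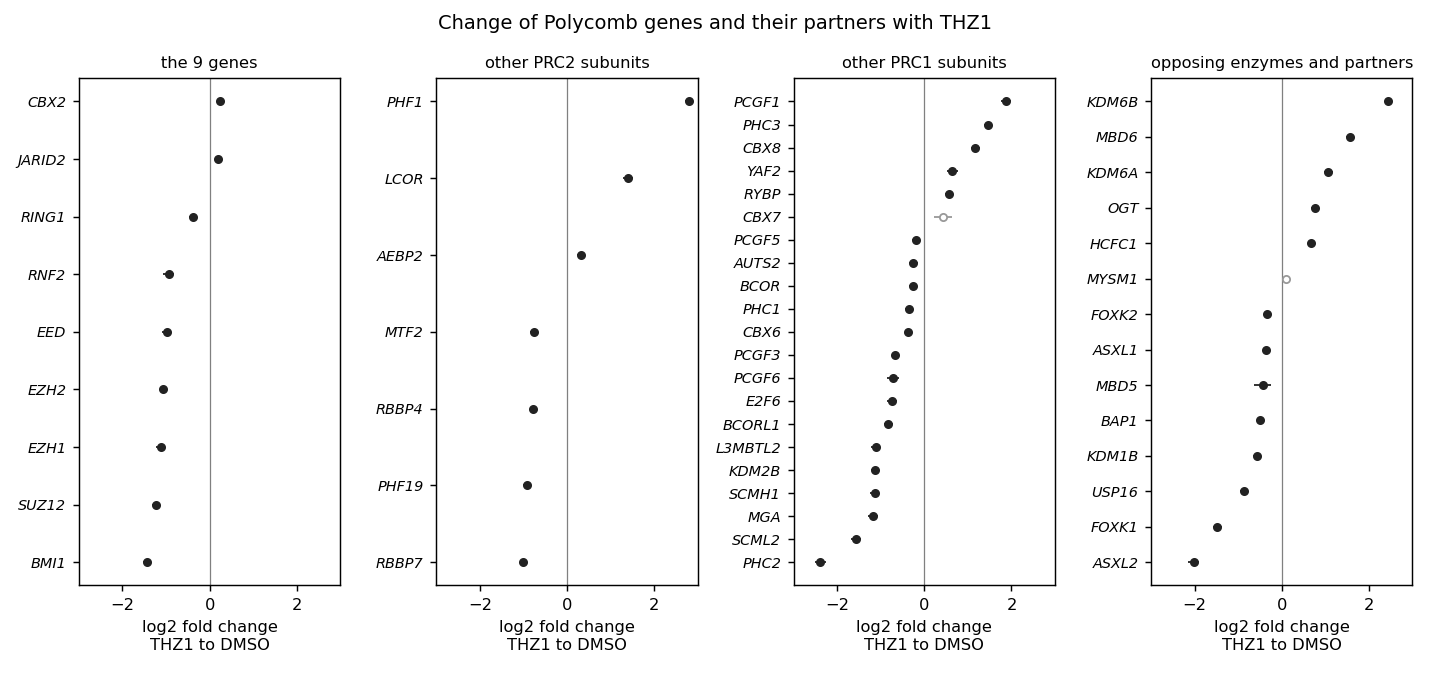
Log2 fold change (THZ1 to DMSO) with SE for the 9 Polycomb genes, the other subunits of PRC2 and PRC1, and the opposing enzymes and partners. Filled points passed an adjusted p-value of 0.05 in the edgeR quasi-likelihood test, and PHF1 (2.80) and KDM6B (2.44) lie at the upper end while PHC2 (-2.39) lies at the lower end. JARID2 and CBX2 lie just above 0, at 0.20 and 0.24, and fell to -0.05 and -0.0090 with library sizes alone.

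Classical targets of Polycomb silencing were at or near 0 in both treatments. Of the 39 HOX genes, 0 passed the filter on low counts, 27 had 0 counts in every library and the highest count was 9. Their summed counts were 5, 5 and 8 with DMSO and 20, 17 and 33 with THZ1. CDKN2A and CDKN2B of the INK4 locus, a known target of BMI1, had 0 counts in every library. Whether this locus is silenced or missing from the genome of these cells was not tested, so its counts do not report on silencing.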

How the data were processed

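Counts and FPKM of 9 Polycomb genes were analysed in NALM6 cells treated with DMSO or 500 nM of THZ1 for 24 h (3 libraries each). The authors deposited raw counts per gene, from filtered reads mapped to GRCh37 with STAR and counted with htseq-count. The version of the counter, the annotation and the strand setting are not given in the sources used here. The authors also deposited log2 values, read as log2(FPKM + 1), with FPKM from RSEM. Sorted values of this table were nearly the same within a treatment (median difference 0.0015 to 0.0017) and differed between treatments (0.0870 to 0.0902). The design had assumed linear FPKM, so values were taken back to that scale. The authors' p-value, FDR and log2 fold change columns in the deposited table, which hold their own comparison, were not used. BMI1 is not listed there, so its family share came from counts per summed exon length only.

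Genes were filtered with filterByExpr (minimum count 10, minimum total count 15), which left 16622, scaled by TMM and tested with the edgeR quasi-likelihood test and Benjamini-Hochberg adjustment over all genes tested. The SE given with a log2 fold change was worked back from the edgeR F statistic, as the size of the change over the square root of F. Ratios added 0.5 counts, and ratios and shares were compared by two-sided exact permutation tests over libraries. The 9 genes, the lists of other subunits and the markers were chosen with earlier results of these data known. Named are all 9 genes, their paralogs, CDKN2A and CDKN2B, and the 3 highest and 3 lowest called log2 fold changes of each list with a mean of at least 5 CPM. PHC1 is named beside its paralogs PHC2 and PHC3. Genes overlapping a member, and copies of a member, are named as such. Gene positions came from GENCODE 44 lifted to GRCh37. EPOP and PCGF2 were not analysed here. Some results are not reported here, and 1 gene of the lists, though counted, is not named or drawn.

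Alternatives were DESeq2, scaling by RLE, by the upper quartile or by library sizes alone, no filter, 10 counts in every library, a replicate block, each library left out, BMI1 summed with COMMD3-BMI1, and limma on FPKM with a pseudocount of 1 or 0.1. The pipeline was tested on simulated data with few changed genes, balanced in direction. That test cannot show how the scaling holds where most genes change. R 4.3.3, edgeR 4.0.16, limma 3.58.1, DESeq2 1.42.0, Python 3.11.15 and scipy 1.17.1 were used.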

Additional observations from a re-analysis of the deposited data

How the results depend on the processing

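Among the 7 lower Polycomb genes, RING1 lost its call with upper quartile factors (-0.19, adjusted p = 0.060), and the others kept theirs under the alternatives that gave them a value. Limma on FPKM gave 6 lower calls of 8 genes, since it has no value for BMI1. Its calls, kept or lost, carry the doubt that the treatments appear to have been normalised separately. Summing BMI1 with COMMD3-BMI1 could change no value, as the latter had 0 counts. The count of 2 higher calls fell to 0 with library sizes alone, with no filter and with limma on FPKM at a pseudocount of 1 or 0.1 (0 of 8 genes listed), and it was 1 to 2 when 1 library was left out. With library sizes alone JARID2 was -0.050 and CBX2 -0.0090. The 15 lower calls of other PRC1 subunits became 11 with upper quartile factors, 12 with 10 counts in every library, and 13 with RLE factors or DESeq2. With upper quartile factors 7 of these subunits were higher, against 6 with TMM. The opposing enzymes and partners went from 8 lower and 5 higher to 6 lower and 6 higher with upper quartile factors. With limma on FPKM, 1 of the other PRC2 subunits was higher, and CBX7 was -0.66 or -0.98 by pseudocount, both called lower. The change in the EZH2 to EZH1 ratio was 0.31 from FPKM, and that in the EZH2 share was 0.688 percentage points from counts per exon length. The causes of these differences were not tested.

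Replicate numbers are shared by the treatments, but samples of the same number did not deviate together (correlations -0.004, 0.000969 and 0.0206). With the replicate block, 7 Polycomb genes were lower and 2 higher, and over all genes 6786 were lower and 7181 higher. Among genes named, the block ended the call of PCGF5 (-0.20, adjusted p = 0.053). Leaving out a library ended no call of EZH1, EZH2, SUZ12, EED, RING1, RNF2, BMI1 or CBX2. With 3 libraries of each treatment, exact tests cannot give a p-value under 0.1. With library sizes alone 7985 of all genes were lower and 6319 higher, against 6826 and 7224 with TMM.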

Other observations

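Transcripts annotated beside or as copies of the Polycomb genes were read from the raw counts after their values had been seen, with no test. SUZ12P1, an unprocessed pseudogene copy of SUZ12, had 339, 311 and 349 counts with DMSO and 489, 496 and 472 counts with THZ1, although the THZ1 libraries were smaller. SUZ12 itself fell over the same libraries, and how reads shared by the copies were counted is not given in the sources used here. JARID2-DT, a non-coding RNA that starts beside JARID2 on the other strand, had 10, 12 and 8 counts with DMSO and 36, 32 and 23 counts with THZ1. The processed pseudogenes EZH2P1 and BMI1P1 had 0 counts in every library.

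Among the HOX genes, HOXA7 had 0 counts in each DMSO library and 5, 9 and 6 counts in the THZ1 libraries. HOXD13 likewise had 0 counts in each DMSO library and 5, 3 and 6 counts in the THZ1 libraries. Neither passed the filter on low counts, and both were named after their values were seen. HOXD12 had 5, 4 and 6 counts with DMSO and 5, 2 and 9 counts with THZ1, and 27 of the 39 HOX genes had 0 counts in every library. With no filter, the median log2 fold change of all genes was 0.45, against 0.03 with the filter. How many other genes have counts only with THZ1 is not given here, so these counts do not set HOX genes apart.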
